A study of Mus musculus with 6 samples.

Results

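The regions described here are the 976 of 14176 regions in a table of methylation differences between liver tumors and normal livers of mice that lay more than 500 kb from the nearest listed transcription start site (TSS). They were chosen by that distance alone, with no minimum on the difference and no use of its direction. The method was reduced representation bisulfite sequencing (RRBS), in which DNA is cut by MspI at CCGG and unmethylated cytosines are converted by bisulfite and read as T. The samples were 3 normal livers and 3 macroscopic liver tumors with a Ha-ras mutation, all from male mice of the C3H/HeN strain, 74 weeks old. All animals were F2 offspring of the control line in a project on arsenic given during pregnancy, and these controls had a standard diet and tap water. C3H is an inbred strain whose males are prone to liver tumors. The tissue was bulk liver or bulk tumor, so that a change of methylation within cells and a change in the mix of cells cannot be told apart.

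Gene deserts are long stretches of a chromosome with few or no genes. They are poor in CpG sites and rich in interspersed repeats, the remains of transposable elements, which are kept methylated in most adult tissues. Loss of methylation over gene-poor, late-replicating parts of the genome is a well-known feature of tumors, whereas gains in tumors are better known from CpG islands, short CpG-rich stretches that often cover gene starts.

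Each region carried a single value, the mean difference in percent methylation, tumor minus normal, in percentage points. No value per animal was given, so the spread between animals is unknown, no test across the 6 samples could be made, and the read depth behind a region is not known beyond a minimum of 10 reads per cytosine. All regions of the table differed by 20 points or more, up or down, over 3 or more CpG cytosines of which 1 or more was a differentially methylated cytosine (DMC). Intervals given with shares are exact 95% intervals (Clopper-Pearson). They describe counting error over regions alone, and neighbouring regions or copies of a repeat are not independent.

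The gains and losses are shown by their sequence first, with the largest of each kind that fit in 300 bases. All positions are on mouse build mm10 (GRCm38) and count from 1, and the letters are those of the reference genome, which is from the C57BL/6J strain and not from C3H. Capitals mark CpG dinucleotides, the kind of site at which methylation was read. A CpG cut by the edge of a printed sequence is in lower case and is not in the counts of dinucleotides. The 4 largest gains that fit were these.
Gain listed to BC006965, chr11:111975899-111976025, plus strand: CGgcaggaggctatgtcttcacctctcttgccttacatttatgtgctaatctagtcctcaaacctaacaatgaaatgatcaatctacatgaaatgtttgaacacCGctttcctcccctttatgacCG
Gain listed to 5730507C01Rik, chr12:19606809-19606928, plus strand: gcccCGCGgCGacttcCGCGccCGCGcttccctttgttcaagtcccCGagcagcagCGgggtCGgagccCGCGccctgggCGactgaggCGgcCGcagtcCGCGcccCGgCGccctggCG
Gain listed to 1700030C10Rik, chr12:20072031-20072091, plus strand: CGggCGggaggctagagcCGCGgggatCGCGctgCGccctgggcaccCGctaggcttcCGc
Gain listed to Tmem261, chr4:76214975-76215132, plus strand: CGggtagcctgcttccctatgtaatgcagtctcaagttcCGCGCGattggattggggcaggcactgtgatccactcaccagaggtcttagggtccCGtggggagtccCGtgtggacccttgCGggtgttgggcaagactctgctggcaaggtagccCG

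The middle sequences of the 4, both from chromosome 12, held 20 and 9 CpG dinucleotides in 120 and 61 bases. The first held 3 in 127 bases. The 4 largest losses were short and poor in CpG, with 2 to 4 dinucleotides each.
Loss listed to Lphn3, chr5:80307496-80307530, plus strand: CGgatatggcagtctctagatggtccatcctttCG
Loss listed to Hs3st1, chr5:40644442-40644533, plus strand: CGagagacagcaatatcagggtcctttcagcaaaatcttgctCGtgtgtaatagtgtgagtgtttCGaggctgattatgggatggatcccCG
Loss listed to Tnc, chr4:64553965-64553985, plus strand: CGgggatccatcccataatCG
Loss listed to Cntnap2, chr6:44425668-44425745, plus strand: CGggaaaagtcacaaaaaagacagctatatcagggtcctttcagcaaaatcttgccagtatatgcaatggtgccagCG

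Methylation was lower in the tumors at nearly every desert region. Of the 976, 962 were hypomethylated and 14 were hypermethylated, a share of losses of 98.6% (exact interval 97.6 to 99.2%). Gains were thus 1.43% of desert regions (0.786 to 2.40%), beside 14.9% of all regions of the table. The share of gains was 26.1% within 20 kb of a listed TSS, 15.2% from 20 to 100 kb and 4.19% (3.57 to 4.89%) from 100 to 500 kb. The interval over 500 kb did not overlap that of the 100 to 500 kb class. It did overlap within regions that were mostly repeat-masked in the reference and within those that were less so, as given below.

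**Figure D1:**
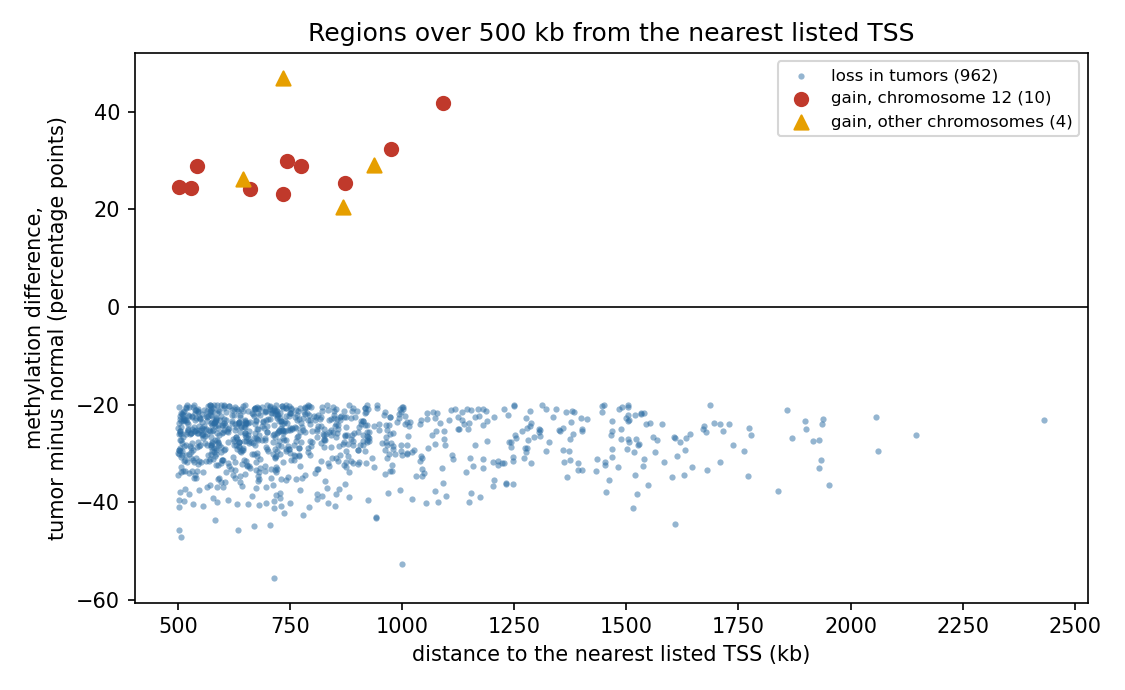
Difference in methylation, tumor minus normal in percentage points, of each of the 976 desert regions against its distance to the nearest listed TSS in kb. Blue points are 962 losses, red circles 10 gains on chromosome 12 and orange triangles 4 gains elsewhere; no gain lay beyond 1500 kb, and no region lies between -20 and 20 points because the table held none.

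The size of the difference moved less with distance than its direction. The median was -26.1 points over desert regions, -24.9 points from 100 to 500 kb and -23.9 points over all regions. Among losses alone the median was -26.2 points, with quartiles of -30.5 and -23.1 points, against -25.2 points for losses from 100 to 500 kb. The study took 30 points as the minimum for a differentially methylated region (DMR). Of the desert regions 268 reached it, or 27.5% (24.7 to 30.4%), beside 23.5% of all regions and 21.1% (19.8 to 22.5%) of those from 100 to 500 kb. The median region had 4 cytosines in the deserts and from 100 to 500 kb, and 5 over all regions. Among desert regions with 10 or more cytosines the share was lower, as given below.

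**Figure D2:**
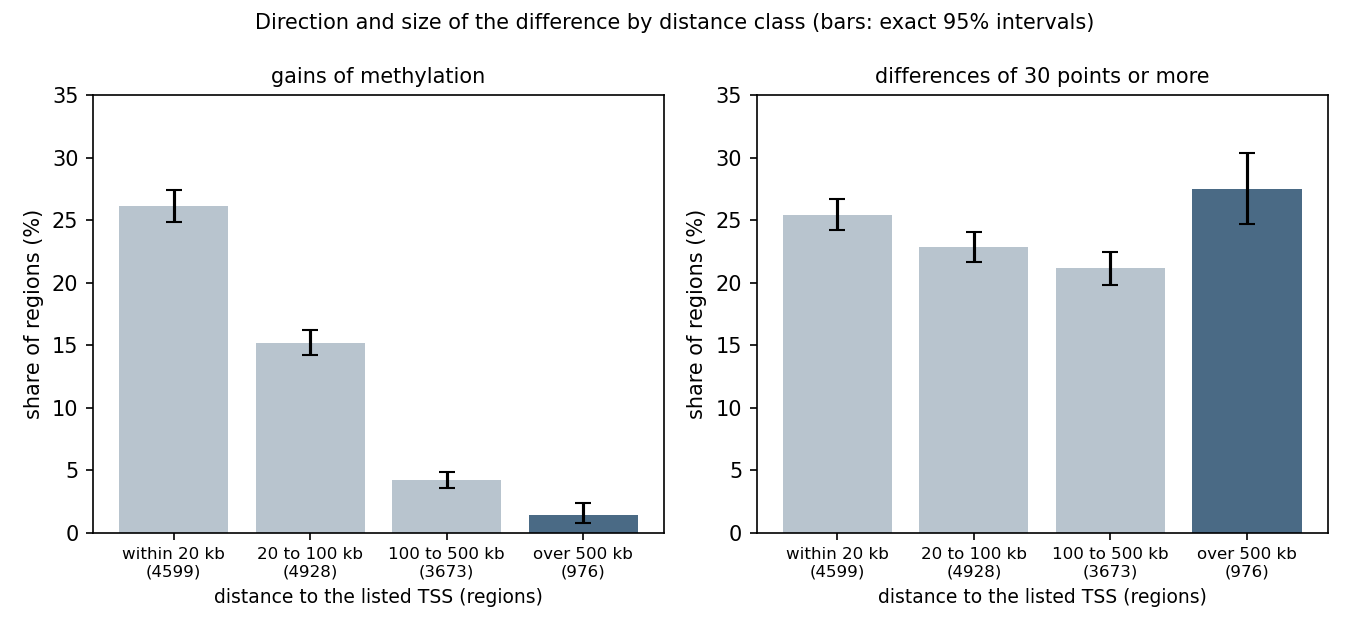
Share of regions, in percent, that gained methylation (left) and that differed by 30 points or more (right), by distance to the listed TSS, with exact 95% intervals and the number of regions under each bar. Gains fell from 26.1% within 20 kb to 1.43% over 500 kb, while the share at 30 points or more stayed between 21.1% and 27.5%.

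Within the deserts, gains were few at every distance. There were 3 gains among 225 regions at 500 to 600 kb, 5 among 275 at 600 to 750 kb, 5 among 242 at 750 to 1000 kb and 1 among 163 at 1000 to 1500 kb. Beyond 1500 kb, 0 of 71 regions were gains, which allows a share of up to 5.06% by the exact interval. The median difference ran from -25.7 points at 600 to 750 kb to -27.0 points beyond 1500 kb. The share at 30 points or more was highest from 1000 to 1500 kb, at 33.7% (26.5 to 41.6%), and its interval overlapped those of the other bins. Regions lying upstream of the listed gene (474) had a median of -26.4 points and 1 gain, and those downstream (502) a median of -25.6 points and 13 gains, 10 of which were the chromosome 12 gains described below.

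Just inside the limit of 500 kb lay regions listed to Rnf217, a ubiquitin ligase gene (500964 bp, -29.9 points), and Grxcr1, a gene of the sensory hair bundle (501083 bp, -34.5 points). Just outside it were regions listed to Dpp10, which encodes a partner of potassium channels (499658 bp, -32.0 points), to the predicted gene Gm20806 on Y (499316 bp, -20.8 points) and to the cell adhesion gene Cadm2 (499030 bp, -30.5 points).

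The label of a gene desert held for curated and protein-coding genes and not for all transcripts. Against starts of curated RefSeq transcripts in the annotation of GRCm38.p6, 795 of the 976 regions (81.5%, 78.9 to 83.8%) still lay over 500 kb away. Against protein-coding starts of GENCODE M21 this held for 768 (78.7%). Once predicted RefSeq transcripts were counted it held for 225 (23.1%), and against all GENCODE starts, which include non-coding RNAs and pseudogenes, for 4. The median distance to the nearest GENCODE start of any kind was 58.7 kb. The 4 regions far from every start were losses, listed to Nxph1 (-44.7 points), Mir6370 (-23.3 points) and, with 2 regions, to Dcc, a netrin receptor gene (-33.2 and -24.6 points). The 2 listed to Dcc lay inside that gene, in introns, and the others were intergenic.

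Most desert regions were in no gene at all. By RefSeq, 853 (87.4%) were intergenic, 111 were in introns, 4 in coding exons and 8 in other exons. The 123 regions inside a RefSeq transcript (12.6%, 10.6 to 14.8%) compare with 36.9% of regions from 100 to 500 kb and 52.3% of all regions. Of these, 77 lay in curated transcripts of 32 genes. Lrp1b, which encodes a large receptor of the LDL receptor family, held 8 regions (median -29.0 points, -38.3 to -20.1). Ntm, which encodes the adhesion protein neurotrimin, held 6 (median -21.8 points). The genes Ccser1 and Macrod2 held 5 each, with medians of -26.2 and -28.7 points, and Cntnap2, a neurexin-family gene, held 4 (-25.1 points). In 37 cases the gene that held the region was the listed gene itself.

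The 976 regions were listed to 347 genes, of which 123 had 1 region and 58 had 5 or more. The genes with most were 2610316D01Rik on chromosome 3 (17 regions over 1045 kb, median -26.8 points), the protocadherin gene Pcdh17 on chromosome 14 (14 over 1406 kb, -26.6 points) and Ppp6c, the catalytic subunit of protein phosphatase 6, on chromosome 2 (13 over 979 kb, -26.6 points). Each of Cdh9, Efna5 and Rag2 had 10, with medians of -26.3, -24.0 and -29.9 points. Cdh9 encodes a cadherin, Efna5 an ephrin ligand of axon guidance and Rag2 a recombinase of lymphocyte receptor genes. A listed gene is the nearest in the study's RefSeq set and need not be acted on by the region.

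By gene family, adhesion and guidance genes made up a larger share of the desert regions than of the table. Contactins, neurexins, neuroligins and leucine-rich adhesion proteins were listed for 93 regions (9.53%, against 1.88% of all regions), with 1 gain among them and a median of -27.6 points. Cadherins and protocadherins were listed for 57 (5.84% against 1.35%), all losses, at a median of -25.2 points over 13 genes that included Pcdh17, Cdh9, Cdh20 and Cdh6. Axon guidance ligands and receptors were listed for 44 (4.51% against 1.18%), all losses, led by Efna5, Efnb2, Epha7 and Epha6. Developmental transcription factors were listed for 18 (1.84% against 2.41%), ion channels for 11 (1.13% against 1.76%) and neurotransmitter receptors for 6 (0.615% against 0.847%). Olfactory and other chemoreceptors, whose genes lie in dense clusters, were listed for 1 region (0.102% against 1.95%). A gene with long empty flanks is listed more often by construction, and no test of these shares was made.

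The regions were spread over many deserts. A desert is taken here as the interval between adjacent curated RefSeq starts. By this count 258 deserts held the 976 regions, of which 78 held 1 region, and 75 held 5 or more and together 611. The 12 that held most had 190 regions (19.5%), 0 of them gains, with medians from -28.7 to -24.7 points and from 3.56 to 6.70 desert regions per Mb. Of the 190, 60 (31.6%) reached 30 points.

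The desert with most regions was 4.07 Mb of chromosome 14 from 80000302 to 84075290, between the starts of Olfm4, which encodes a secreted olfactomedin of the gut, and the predicted gene Gm32455. It held 22 desert regions, from -37.0 to -20.3 points with a median of -26.6 points. On chromosome 17, the 3.87 Mb between Nudt12, a nucleotide hydrolase gene, and Efna5 held 18 (median -24.7 points). On chromosome 3, the 3.64 Mb between D3Ertd751e and 2610316D01Rik held 18 as well (-25.5 points). The fourth, on chromosome 2, lay between Ppp6c and Mir6336 and held 18 in 3.22 Mb (-27.7 points), 8 of them within Lrp1b.

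The next was the interval between Lrrc4c, which encodes a netrin-G ligand of synapses, and Iftap, with 16 regions in 4.15 Mb (median -28.2 points). Deserts with 15 regions lay between the cadherin genes Cdh6 and Cdh9 on chromosome 15 (-25.5 points), A430085M09Rik and the pigment gene Tyrp1 on chromosome 4 (-28.7 points), Gm31747 and the synaptic gene Lrrtm1 on chromosome 6 (-28.3 points), and Gm20268 and Cdh20 on chromosome 1 (-24.8 points). The interval from the adhesion gene Ncam2 to 4930553E22Rik on chromosome 16 held 14 (-28.1 points). Those from Fstl5 to Rapgef2, a Rap activator gene, on chromosome 3 and from Gm10440 to 4932441J04Rik on chromosome 5 held 12 each (-28.3 and -28.4 points). Within each of the 12 the smallest and the largest loss lay 11.7 to 23.8 points apart, more than the medians of the 12 differed.

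**Figure D3:**
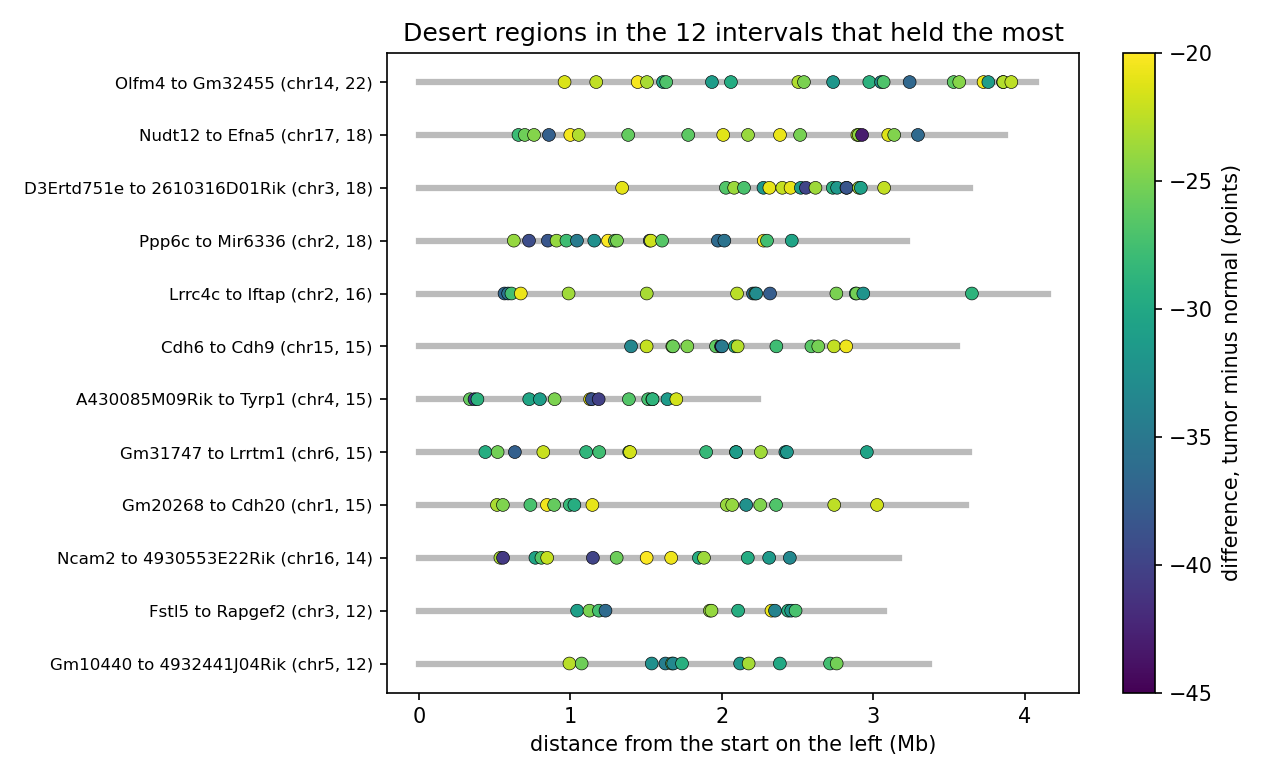
Position of each desert region in the 12 deserts that held the most, in Mb from the start on the left, with grey lines for the length of each desert and the number of regions in brackets. The colour is the difference, tumor minus normal in points; all 190 regions were losses, from -44.5 to -20.1 points.

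Desert regions were spaced widely with local clusters. Between the 955 adjacent pairs on the same chromosome the median gap was 158 kb, with quartiles of 52.4 and 668 kb. In 370 pairs the gap was at most 100 kb, in 64 at most 10 kb and in 2 at most 1 kb. Linking regions across gaps of up to 100 kb gave 221 runs with 591 regions (60.6%). The longest run had 7 regions over 343 kb near 2610316D01Rik, from -39.9 to -20.9 points. Runs of 6 lay near Tmprss15 (153 kb), 2610316D01Rik again (185 kb), Ntm (198 kb) and Epha6 (262 kb), and all were losses throughout.

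The directions differed in 13 of the 955 adjacent pairs and in 0 of the 64 within 10 kb, and with losses at 98.6% of regions few such pairs can occur at any gap. The closest pair lay 505 bp apart on chromosome 13 near Ofcc1, at -22.1 and -25.7 points. The next, 695 bp apart near 2610316D01Rik, stood at -24.3 and -38.4 points. The remaining 8 of the 10 closest pairs were 1128 to 2044 bp apart, near Cdk5rap2, Adarb2, Lrrtm1, Abca13, Socs6, Tyrp1, Nova1 and Pou3f2, and all were losses.

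The largest loss was 35 bp on chromosome 5 listed to Lphn3, which encodes an adhesion receptor of the latrophilin family, at -55.5 points with 3 of 3 cytosines called DMCs. A region listed to Hs3st1, a heparan sulfate sulfotransferase gene, followed at -52.7 points with 7 of 7, and 1 listed to Tnc, which encodes the matrix protein tenascin C, at -47.1 points with 3 of 3. Losses listed to Cntnap2 and to the intestinal sucrase-isomaltase gene Sis both stood at -45.8 points. The region listed to the kinesin gene Kif16b (-44.8 points) lay in an intron of Macrod2. The other 6 of the 12 largest were listed to Nxph1, a neurexin ligand gene (-44.7 points), Cdh9 (-44.5 points), the serotonin receptor gene Htr2c on X (-43.7 points), the small GTPase gene Rab28 (-43.3 points), Efna5 (-43.0 points) and the tubulin-modifying gene Ttll7 (-42.6 points). They rested on 3 to 7 cytosines each. Among desert regions with 10 or more cytosines 6 of 90 reached 30 points (6.67%, 2.49 to 13.9%), against 262 of 886 with fewer (29.6%, 26.6 to 32.7%).

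The 5 regions farthest from a listed TSS were all losses. On Y, regions listed to Gm20738 and Erdr1 lay 2432 and 2146 kb away, at -23.3 and -26.3 points, though curated starts of the annotation lay 478072 and 104493 bp from them. On autosomes the farthest were listed to Olfm4 (2060.3 kb, -29.6 points) and Rag2 (2056 kb, -22.5 points, and 1951 kb, -36.4 points).

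The deserts are a thin target for RRBS. Counted from curated RefSeq starts, 222 Mb, or 8.40% of the assembled bases, lay more than 500 kb from a start and held 4.80% of the CCGG sites and 5.95% of the regions in the table. Per Mb this was 3.79 regions against 5.50 elsewhere, and per 1000 CCGG sites 10.8 against 8.59. Y lowered both far rates: it made up 36.5 of the 222 Mb and 13855 of the 78210 CCGG sites, and held 26 of the 843 regions. Of all CCGG sites more than 500 kb from a start, 70.1% were in repeat-masked bases, against 29.8% elsewhere. On Y 13470 of the 13855 were. Which CCGG sites were covered by reads is not known here.

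Desert regions were made of repeats to a large extent. With 500 bp on each side, the median desert region was 67.7% repeat-masked in the reference, against 29.1% from 100 to 500 kb, 17.2% from 20 to 100 kb and 15.6% within 20 kb. Without these flanks the medians were 93.9%, 23.7%, 7.23% and 4.34%. By count, 701 regions (71.8%, 68.9 to 74.6%) were masked over at least 50% of their bases. The share was 41.9% from 100 to 500 kb and 27.3% over all regions. Of the CCGG sites over 500 kb from curated starts, 70.1% were masked. Of the 701, 1 gained methylation and 700 lost it, with a median of -26.1 points. Gains were thus 0.143% (0.00361 to 0.792%) of masked desert regions. They were 0.390% (0.143 to 0.846%) of such regions from 100 to 500 kb and 3.57% of all those at 500 kb or nearer. Of the 275 less masked desert regions 13 gained, 10 of them on chromosome 12, and the median was -25.8 points. Gains were 4.73% (2.54 to 7.95%) of these 275, against 6.94% (5.90 to 8.10%) from 100 to 500 kb and 19.8% at 500 kb or nearer. In both groups the desert interval overlapped that of 100 to 500 kb. With 500 bp on each side, desert regions had a median GC content of 43.2% and a ratio of observed to expected CpG of 0.224, against 45.4% and 0.237 from 100 to 500 kb and 47.3% and 0.248 over all regions.

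Many desert regions were copies of each other. When regions were joined at 85% identity or more over at least 80% of the longer region, 14 sequence families of 5 or more members held 243 desert regions (24.9%), all losses, with a median of -27.2 points, against -25.8 points for the other 733. The families were defined after the sequences were seen. The first family had 77 members on 19 chromosomes, 130 to 154 bp long, with a median of -26.6 points and a range of -44.5 to -20.7 points. The second had 35 members (median -27.2 points) and the third 31 (median -26.9 points). The families were built from desert regions alone, and their sequences were not confined to deserts. Of the 13200 regions at 500 kb or nearer, 202, 94 and 112 matched the first 3 families. None of these was a gain, and their medians were -26.7, -25.1 and -26.9 points. The sequences below are shown because they recur in deserts on many chromosomes, and the relative shown for the first is 93.4% identical to its reference.
Family 1, reference listed to Slitrk1, chr14:108055034-108055185, plus strand: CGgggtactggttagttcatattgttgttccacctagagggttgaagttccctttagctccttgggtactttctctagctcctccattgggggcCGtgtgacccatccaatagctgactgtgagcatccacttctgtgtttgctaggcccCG
Family 1, relative listed to Tmeff2, chr1:50122682-50122833, plus strand: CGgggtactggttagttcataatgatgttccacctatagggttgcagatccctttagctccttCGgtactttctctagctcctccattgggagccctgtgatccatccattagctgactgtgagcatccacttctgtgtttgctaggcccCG
Family 2, reference listed to Ddx18, chr1:122365315-122365571, plus strand: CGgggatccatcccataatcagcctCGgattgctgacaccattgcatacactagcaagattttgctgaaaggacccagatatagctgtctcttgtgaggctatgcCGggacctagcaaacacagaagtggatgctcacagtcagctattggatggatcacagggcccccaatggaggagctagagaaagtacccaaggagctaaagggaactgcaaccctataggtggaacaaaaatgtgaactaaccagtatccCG
Family 3, reference listed to Rapgef2, chr3:78533741-78533847, plus strand: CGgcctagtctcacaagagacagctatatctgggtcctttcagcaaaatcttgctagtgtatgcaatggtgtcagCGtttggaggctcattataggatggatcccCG

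These 3 families matched parts of the same repeat-rich window. This window of 1107 bp around the third family's reference on chromosome 3, 83.3% repeat-masked, aligned at 75% identity or more over at least 80% of the bases of each of 277 desert regions, among them all 77, 35 and 31 members of the 3 families. It is called the element below, though the reference used here marks repeats without naming them, so that the window could hold more than 1 kind of repeat. The 277 regions were 28.4% of desert regions (25.6 to 31.3%). The share was 14.02% (12.9 to 15.2%) from 100 to 500 kb, 5.19% from 20 to 100 kb and 2.83% (2.37 to 3.35%) within 20 kb. The window was chosen because its sequence recurred among desert regions, so a higher share there was partly fixed by that choice, and these shares are a description.

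Every region of the table that aligned to the element was a loss. The window aligned to 1178 of the 14176 regions, with 0 gains, and the other 12998 held all 2117 gains. Gains were also rare among mostly repeat-masked regions of any kind, at 1 of 701 in the deserts and 113 of 3166 at 500 kb or nearer. In the deserts the absence of gains is therefore not particular to the element. In the deserts its copies had a median of -27.5 points and 32.9% reached 30 points, against -25.5 points and 25.3% for the other desert regions. Nearer to listed starts the medians of its copies were -27.1 points at 100 to 500 kb, -26.4 points at 20 to 100 kb and -25.6 points within 20 kb. Of the 50 largest desert losses 20 aligned to it, beside 28.4% of all desert regions, and of the 12 largest 7 did, namely those listed to Lphn3, Hs3st1, Cntnap2, Nxph1, Cdh9, Htr2c and Ttll7. Very short regions can be missed by this alignment. The 21 bp listed to Tnc were not counted, though all but the last base match the start of the family 2 reference. In the genome, 43078 copies of the 107-bp core were found at 85% identity or more, of which 13.99% lay over 500 kb from a curated start. Of the 143 regions of the table that matched the core, 20.98% did. The core was taken from a family of desert regions, so a higher share among regions of the table was partly fixed by that choice. Genome copies also need not have been covered by reads, so the 2 shares are a description. Desert regions that did not align to the window had 14 gains among 699, so 98.0% of them were losses.

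**Figure D4:**
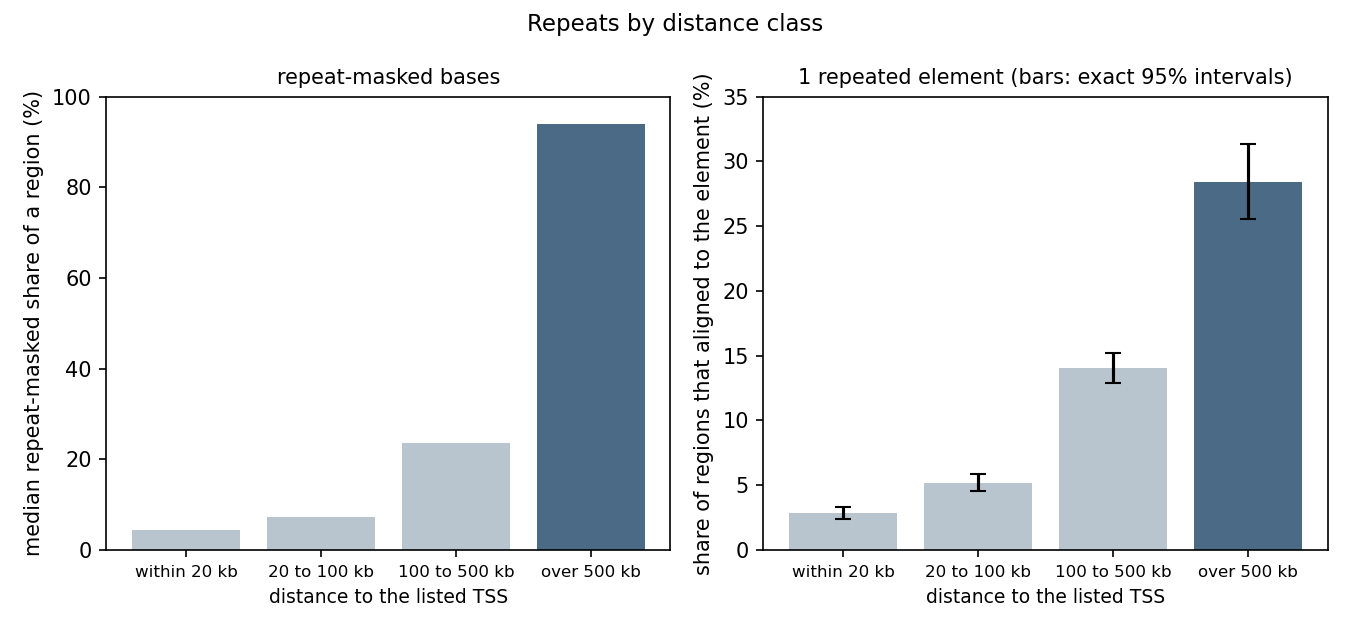
Median repeat-masked share of a region without flanks in percent (left) and share of regions that aligned to the 1107-bp window around the third family's reference, in percent with exact 95% intervals (right), by distance to the listed TSS. Both rose with distance, to 93.9% and 28.4% over 500 kb.

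The 14 gains fell into 10 on chromosome 12 and 4 elsewhere. The 10 lay between 19044104 and 22467196, were listed to 5730507C01Rik (6), 1700030C10Rik (2) and 2410018L13Rik (2), and ranged from 23.2 to 41.9 points. They were rich in CpG, with 701 measured cytosines between them, 400 of which were DMCs. Their GC content was 67.9 to 79.2%, the ratio of observed to expected CpG 0.683 to 1.07, and at most 5.71% of their bases were repeat-masked.

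The largest of the 10, 120 bp from 19606809, gained 41.9 points, with 18 of 21 cytosines DMCs. It was in an exon of the predicted gene Gm9257. A gain of 32.4 points overlapped a coding exon of Gm3973, with 75 of 106 cytosines DMCs. In an intron of Gm3993 the difference was 29.96 points (7 of 10 DMCs), and in an exon of Gm5953 28.9 points (76 of 131). The gain in an exon of Gm10476 was 28.8 points (18 of 29), that in a coding exon of Gm5784 25.5 points (43 of 84) and that in a coding exon of Gm40881 24.5 points (84 of 154). The last is the desert region with the most measured cytosines, and the 5 with the most were all among these 10. The remaining 3 were in an intron of Gm40847 (24.4 points, 21 of 36), over the GENCODE genes Gm48525 (24.2 points, 44 of 97) and Gm20486 (23.2 points, 14 of 33).

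These 10 gains were at or near gene starts that the listed distance had not counted. Each lay within 323 bp of a GENCODE transcript start and 6 overlapped a start, and the gain in Gm5784 overlapped a curated RefSeq start of the annotation used here. They are therefore over 500 kb from the listed TSS but not from all starts. Counted instead from curated RefSeq starts, 843 regions of the table lay over 500 kb away, of which 99.5% were losses. The chromosome 12 gains in Gm3993 and Gm40881 were still among the 843, at 684161 and 502793 bp from a curated start. The gains listed to BC006965 and Tmem261, on other chromosomes, were not, at 463442 and 129111 bp.

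Each of the 10 also had close copies nearby. At 85% identity or more over at least 80% of the region, each had 1 to 38 other copies in the genome, with a median of 33.5, all on chromosome 12, and the best copy was 88.3 to 99.3% identical. The 120 bp of the largest of them, printed above, recur inside other gains, and the copies below are 95.8% and 94.2% identical to it.
Copy in the gain listed to 2410018L13Rik, chr12:22274513-22274632, minus strand: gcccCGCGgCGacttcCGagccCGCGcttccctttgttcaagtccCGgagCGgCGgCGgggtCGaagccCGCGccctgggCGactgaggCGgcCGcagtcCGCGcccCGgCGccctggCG
Copy in a second gain listed to 5730507C01Rik, chr12:19288681-19288800, plus strand: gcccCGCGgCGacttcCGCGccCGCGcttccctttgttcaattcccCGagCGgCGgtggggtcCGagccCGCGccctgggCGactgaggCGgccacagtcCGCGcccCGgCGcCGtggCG

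Reads were kept only with a unique best hit, and how many reads of such copies this removed or placed on another copy is not known. The reference is from C57BL/6J, and the number of copies in C3H was not tested.

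The gains belonged to a longer stretch of chromosome 12 from 18810664 to 23801236, whose bounds were set after the gains were seen. It held 37 regions of the table, of which 25 gained and 12 lost methylation, and 13 were desert regions. All 23 regions with 10 or more cytosines were gains, and 2 of the 14 with fewer. The gains had a median of 27.9 points, a GC content with flanks of 62.8% and a median of 1.99% repeat-masked bases. The losses had a median of -26.4 points, a GC content of 46.4% and 58.9% repeat-masked bases. The 3 desert losses there stood at -20.7, -26.0 and -28.0 points, the first between gains of 24.2 and 28.9 points. Without this stretch, 4 of 963 desert regions were gains, or 0.415% (0.113 to 1.06%).

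**Figure D5:**
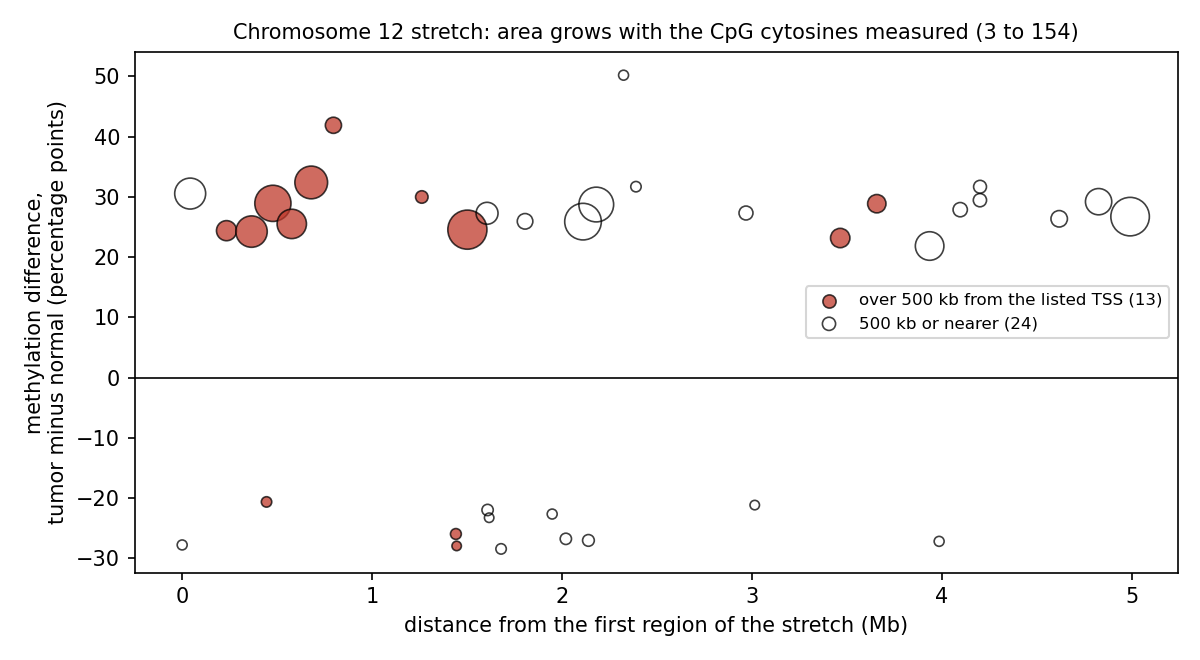
Difference in methylation, tumor minus normal in percentage points, of the 37 regions of the chromosome 12 stretch against the distance in Mb from its first region; filled circles are the 13 desert regions and the area grows with the number of CpG cytosines, from 3 to 154. All 23 regions with 10 or more cytosines lay above 0, and 12 small ones below.

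The 4 gains on other chromosomes rested on 3 to 14 cytosines each, and those on chromosome 12 on 10 to 154. With flanks, the 4 had a median GC content of 42.2% and a CpG ratio of 0.219, close to the 43.2% and 0.223 of desert losses. The largest of all desert gains, at 46.9 points, was an unmasked region of 127 bp on chromosome 11 listed to BC006965, in intergenic sequence 735 kb away, with 3 of 4 cytosines DMCs and 0 other copies in the genome at 85% identity. On chromosome 4, a region listed to Tmem261 in an intron of the tyrosine phosphatase gene Ptprd gained 29.1 points with 9 of 14 cytosines DMCs. It was 100% repeat-masked, with 7664 other copies, and was the 1 gain among the 701 mostly masked desert regions. On chromosome 1, a region in an intron of the neurexin-family gene Cntnap5b gained 26.2 points with 1 of 3 cytosines a DMC, and an intergenic region listed to Brinp3 gained 20.5 points with 1 of 4. The region in Cntnap5b had 0 other copies. The region listed to Brinp3 had 73 and was 40.7% repeat-masked.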

How the data were processed

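RRBS libraries of 3 normal livers and 3 liver tumors were trimmed with Trim Galore and aligned by the authors with Bismark to mm10 as pairs with unique best hits. They counted C and T reads per CpG cytosine with methylKit, strands apart, and called DMCs from a logistic regression (q under 0.01, at least 10 reads, at least 25 points). Regions were built with eDMR and the nearest RefSeq TSS was found with bedtools 2.25.0 (submitters' processing notes). Versions of the other tools are not stated. The deposited table lists 1 difference per region in percentage points, with counts of CpG cytosines and DMCs, the position and the distance to the TSS in bases. It carries no value per sample, so that no test, replicate spread or depth could be computed.

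Deposited starts count from 0. After adding 1, all 14176 starts lay in a CpG of GRCm38.p6, and coordinates are given in that form. Gene models were those of RefSeq for GRCm38.p6 and of GENCODE M21, and repeat-masked bases those of the reference. Upstream and downstream follow the strand of the listed gene. Regions were aligned to each other, to the 1107-bp window and, for the gains and the 107-bp core, to the genome with BLAST 2.17.0. Counts, medians and exact intervals were computed in Python 3.11.15 with pandas 2.3.3 and scipy 1.17.1, and the distance and interval functions were tested on simulated data.

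The members and lists were chosen with earlier results of these data known, and the sequence families, the element window and the chromosome 12 stretch after the sequences and gains were seen. Named were all gains, the 12 largest losses, the 12 deserts with most regions, the 5 farthest regions, the 3 on each side of 500 kb, the 5 with most cytosines and the 10 closest pairs. Printed were the 8 largest gains and losses up to 300 bp, plus family references, relatives and copies added after they were seen. Chromosome 18 sequence was not printed, and 1 region beside 500 kb and 1 relative are not reported here. Alternatives were other distances, minimums, annotations and repeat filters.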

Additional observations from a re-analysis of the deposited data

How the results depend on the processing

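The share of losses stayed between 87.8 and 99.6% and the median difference stayed negative under every alternative run. Of 64 alternative values, 29 moved by less than the counting interval. The share of losses was 99.6% beyond 1000 kb, 99.5% by distance to curated RefSeq starts, 99.5% for regions in no gene, 97.4% with at least 5 cytosines, 87.8% with at least 10, 97.6% with at least 3 DMCs and 95.3% under 50% repeat-masked. Among alternatives chosen after seeing the data it was 99.6% without the chromosome 12 stretch and 99.6% over 500 kb from every RefSeq start. The 87.8% with at least 10 cytosines rests on 90 regions, 10 of whose 11 gains lay in that stretch.

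The median difference was -26.7 points beyond 1000 kb, -29.4 and -33.4 points at minimums of 25 and 30 points, -24.8 and -23.2 points with at least 5 and 10 cytosines, -28.2 points with at least 3 DMCs, -25.5 points with 1 region for each listed TSS and side, and -27.2 points over 500 kb from every RefSeq start. The share at 30 points or more was, in the same order where it moved, 31.6% beyond 1000 kb, 17.0% and 6.67% with at least 5 and 10 cytosines, 41.0% with at least 3 DMCs, 20.97% with 1 region for each TSS and side, and 31.9% over 500 kb from every RefSeq start. Minimums of 25 and 30 points cut on the difference itself, so those larger medians were fixed by the filter. A DMC needs at least 25 points, so the values with at least 3 DMCs were partly fixed as well. The share inside genes was 18.5% beyond 300 kb, 8.12% beyond 1000 kb, 10.4% at 30 points, 15.1% and 21.1% with at least 5 and 10 cytosines, 15.1% with 1 region for each TSS and side, 22.2% under 50% repeat-masked and 8.36% over 500 kb from GENCODE protein-coding starts. Without the 500 bp flanks the median repeat-masked share was 93.9%, GC 51.0% and the CpG ratio 0.425. Between regions of at least 30 points the median gap was 707 kb, since fewer regions were counted. Leaving out each replicate and a coverage minimum could not be run, since the table carries no value per sample. No paired analysis was possible because the result comes from no test across samples.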

Other observations

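By chromosome, the number of desert regions ran from 6 of 290 regions on chromosome 19 to 89 of 920 on chromosome 1, and on Y 25 of 55 were desert regions. Chromosome medians lay between -27.9 points on chromosome 18 and -23.2 points on chromosome 11. All 54 desert regions on the sex chromosomes were losses, with medians of -26.9 points over 29 on X and -26.2 points over 25 on Y. The Y regions had a median of 100% repeat-masked bases, and 3 of 25 reached 30 points against 9 of 29 on X. Of the 25, 5 formed the one sequence family found on a single chromosome, with differences of -35.8 points at the most. How often reads from such copies had a unique best hit is not known.

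Small RNA genes were listed for 54 desert regions (5.53%, against 4.34% of all regions), all losses, led by Mir6350 with 8 regions and a median of -31.4 points. Predicted or unnamed genes, a class set by the form of the gene name, were listed for 245 (25.1% against 18.9%), and their 10 gains were those on chromosome 12. The gain listed to BC006965 was not counted in this class.

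The losses with most cytosines were small. A region listed to Arrdc3, an arrestin-family gene, had 27 cytosines and stood at -20.03 points with 7 DMCs. The next had 21 cytosines, listed to Gm20268 (-20.6 points), and 20 each, listed to the potassium channel gene Kcnd2 (-24.4 points) and, within Wwox, to the transcription factor gene Maf (-22.7 points).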
